A study of Mus musculus with 4 samples.

Results

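The 6 trace amine-associated receptor genes Taar2, Taar3, Taar4, Taar5, Taar6 and Taar9 are olfactory members of the mouse Taar family without a near-identical copy in the gene cluster, unlike the genes of the Taar7 and Taar8 groups. Taar1, which also has no such copy, is not among them. They were taken by name from the 22399 genes counted in each library, which also held 9 other Taar genes and 1103 odorant receptor (Olfr) genes. At least 3 UMIs of 1 of the 6 genes were found in 86 of 41911 barcodes, and 65 of these were among the 36385 barcodes kept after filtering. Each UMI (unique molecular identifier) stands for a single captured transcript, and each barcode for 1 droplet, which usually holds 1 cell.

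Wild type mice of the strain C57BL/6J, 3 months of age, gave the tissue, the main olfactory epithelium, which was profiled by droplet single-cell RNA sequencing with 2 libraries from females and 2 from males and no treatment or genetic change in any of them. The study's title concerns neurexins in the targeting of olfactory axons. The whole dissociated epithelium was loaded, with no sorting of neurons, and the chemistry reads the 5′ end of each transcript. The labels number the libraries as replicates without naming animals, so p-values refer to these libraries only and not to a number of animals. In the tests fitted over all genes (edgeR), the spread is pooled across genes. A p-value there does not measure the library spread of a single gene alone.

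Trace amine-associated receptors form the second family of olfactory receptors of the main epithelium, beside the much larger family of odorant receptors. Like these they are G-protein-coupled receptors, signal through the olfactory G protein, and are chosen singly, 1 receptor gene per mature neuron. Their ligands are volatile amines, and most Taar neurons lie in the dorsal epithelium and send axons to glomeruli of the dorsal bulb. Taar1 is a receptor of brain and other organs and is not an olfactory receptor. Taar2, Taar3 and Taar4 belong to the branch that detects primary amines (Taar4 responds to phenylethylamine), while Taar5, Taar6 and Taar9 belong to the branch of tertiary amines, with trimethylamine the known ligand of Taar5.

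The genes lie in 1 cluster of 189 kb on chromosome 10 (GENCODE M21 on GRCm38, of which 99.5% of the counted gene IDs were members). Taar2 (ENSMUSG00000059763, chr10:23938572-23941583) has 2 exons, and its first exon holds 24 coding bases. The others have 1 exon each, all of it coding: Taar3 (ENSMUSG00000069708, chr10:23949558-23950589), Taar4 (ENSMUSG00000069707, chr10:23960494-23961537) and Taar5 (ENSMUSG00000069706, chr10:23970706-23971719) on the plus strand. Taar6 (ENSMUSG00000045111, chr10:23984609-23985646) and Taar9 (ENSMUSG00000037424, chr10:24108488-24109534) are on the minus strand. Coding lengths ran from 1014 bases (Taar5) to 1047 (Taar9), so UMI counts of the 6 genes come from transcripts of nearly equal coding length.

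The first 60 coding bases of each gene are shown because 5′ libraries read near the start of a transcript and because these bases tell the 6 genes apart. The start codon is in capitals, and Taar2 crosses from its first exon (chr10:23938572-23938595) to its second (chr10:23940588-23940623). The others lie at chr10:23949558-23949617 (Taar3), chr10:23960494-23960553 (Taar4), chr10:23970706-23970765 (Taar5), chr10:23985587-23985646 (Taar6, minus strand) and chr10:24109475-24109534 (Taar9, minus strand). A pair from the Taar7 group (Taar7d, chr10:24027222-24027281, and Taar7e, chr10:24037614-24037673) is added for contrast.
Taar2: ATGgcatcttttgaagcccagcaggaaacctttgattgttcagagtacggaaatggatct
Taar3: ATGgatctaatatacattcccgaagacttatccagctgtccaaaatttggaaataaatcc
Taar4: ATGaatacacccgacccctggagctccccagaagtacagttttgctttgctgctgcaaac
Taar5: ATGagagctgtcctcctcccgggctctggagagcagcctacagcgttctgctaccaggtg
Taar6: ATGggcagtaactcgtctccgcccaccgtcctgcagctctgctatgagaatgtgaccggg
Taar9: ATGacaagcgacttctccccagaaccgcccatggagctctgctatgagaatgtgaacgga
Taar7d: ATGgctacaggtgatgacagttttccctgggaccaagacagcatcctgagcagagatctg
Taar7e: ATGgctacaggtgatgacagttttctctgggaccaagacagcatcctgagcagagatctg
Read in register, Taar6 and Taar9 matched at 40 of these 60 bases, the most of any pair of the 6 genes, and Taar2 and Taar3 at 27. The Taar7d and Taar7e starts matched at 59 of 60. Over the whole coding sequence, the closest relative of Taar6 was Taar8b (78.5% identity) and that of Taar9 was Taar8c (69.0%). Taar2 and Taar3 were closest to each other (64.8%), Taar4 was closest to Taar2 (60.5%) and Taar5 to Taar9 (58.3%). The copies within the Taar7 and Taar8 groups had 93.5% to 98.1% identity with their closest relative, and shared unbroken runs of at least 168 bases with it or with another copy. The longest run that 1 of the 6 genes shared with any Taar gene was 50 bases (Taar6 with Taar8a).

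The libraries held 100725429 to 111577458 UMIs each, with a median of 8245 to 9066 UMIs per kept barcode. Barcodes were gated as mature olfactory neurons by Omp (olfactory marker protein; 20507 barcodes) or as immature neurons by Gap43 (growth-associated protein of extending axons; 1859 barcodes), without use of any receptor gene. The immature gate had 2227 ± 145 Gap43 CPM (UMI counts scaled to the total UMIs of the summed barcodes; SD, n = 4) against 92.0 ± 6.10 in the mature gate, and 367 ± 11.8 against 7912 ± 261 Omp CPM. Of the gated barcodes, 1125 had more UMIs of sustentacular (supporting cell) markers than of Omp and Gap43 together. Between 136 and 172 barcode sequences were shared by each pair of libraries, and none of the 4 member barcodes with a shared sequence had a member UMI in the other library.

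Taar6 and Taar4 were the most frequent of the 6 genes and Taar5 the rarest. Taar6 was counted at 3 or more UMIs in 5, 6, 7 and 4 kept barcodes of female 1, female 2, male 1 and male 2, a near-even spread. Taar4 was counted in 2, 2, 5 and 10, and the male libraries lay above both female libraries. Taar9 was counted in 2, 3, 2 and 3 kept barcodes. Taar2 was found in 0, 1, 3 and 5 and Taar3 in 0, 0, 2 and 2, so neither gene had a kept barcode in female 1. The only Taar5 barcode came from male 2. In the order 22, 19, 10, 9, 4 and 1, the ranges over libraries of Taar6 and Taar4 overlap, as do those of Taar9, Taar2 and Taar3. Before doublets were removed the totals were 29 for Taar6, 28 for Taar4, 12 for Taar9, 9 for Taar2, 7 for Taar3 and 1 for Taar5. No UMI of Taar1 or of Taar8c was found in any barcode, while the other Taar7 and Taar8 genes together were at 3 or more UMIs in 67 kept barcodes.

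**Figure D1:**
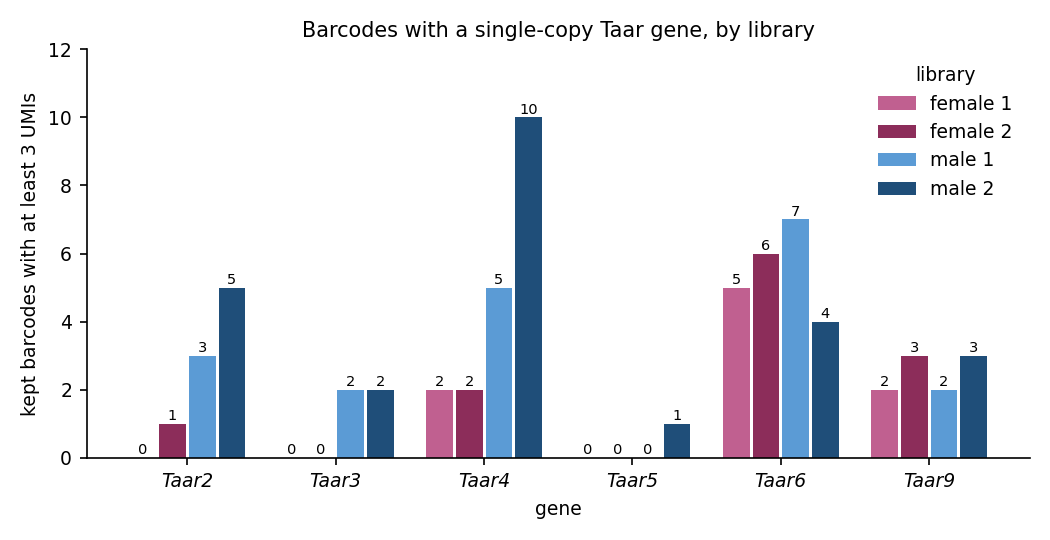
Kept barcodes with at least 3 UMIs of each single-copy Taar gene (vertical axis, number of barcodes), with 1 bar per library and the number above it. Taar6 has 4 to 7 barcodes in every library, Taar4 reaches 10 in male 2, and Taar5 has 1 barcode in all.

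The genes also differed in UMIs per barcode, with Taar2 far above the others. Taar2 neurons of the mature gate held 96, 99, 129, 129, 141, 156 and 175 UMIs of their receptor, with a median of 129. All 7 lay above the median of 57 UMIs that the top odorant receptor gene had in mature-gate barcodes (quartiles 29 and 98). The other 2 kept Taar2 barcodes held 7 and 20 UMIs and came from droplets of 1696 and 1459 UMIs in all, with 2 Omp UMIs each, too few for the mature gate. Taar3 gave 6, 8, 10 and 17 UMIs in its 4 mature-gate barcodes. Taar4 ran from 3 to 23 UMIs there, with a median of 13, and the Taar5 barcode had 10.

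Taar6 gave the fewest, 3 to 11 UMIs with a median of 5 in 18 mature-gate barcodes, and Taar9 gave 3 to 43 with a median of 21 in 9. The range of Taar2 in the mature gate did not overlap that of any other member, while the ranges of Taar3, Taar4, Taar5 and Taar6 overlapped. Scaled to 10000 UMIs per barcode, the mature-gate medians were 188 for Taar2, 30.8 for Taar9, 13.9 for Taar4, 12.9 for Taar5, 9.20 for Taar3 and 6.41 for Taar6. The top odorant receptor gene had a median of 78.2 on the same scale, so 5 of the 6 genes lay below it and Taar2 above it. Within genes, the library medians of Taar4 in the mature gate were 11.5, 12.5, 15 and 12 UMIs, and those of Taar6 were 7, 5, 5 and 6, with no library apart.

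**Figure D2:**
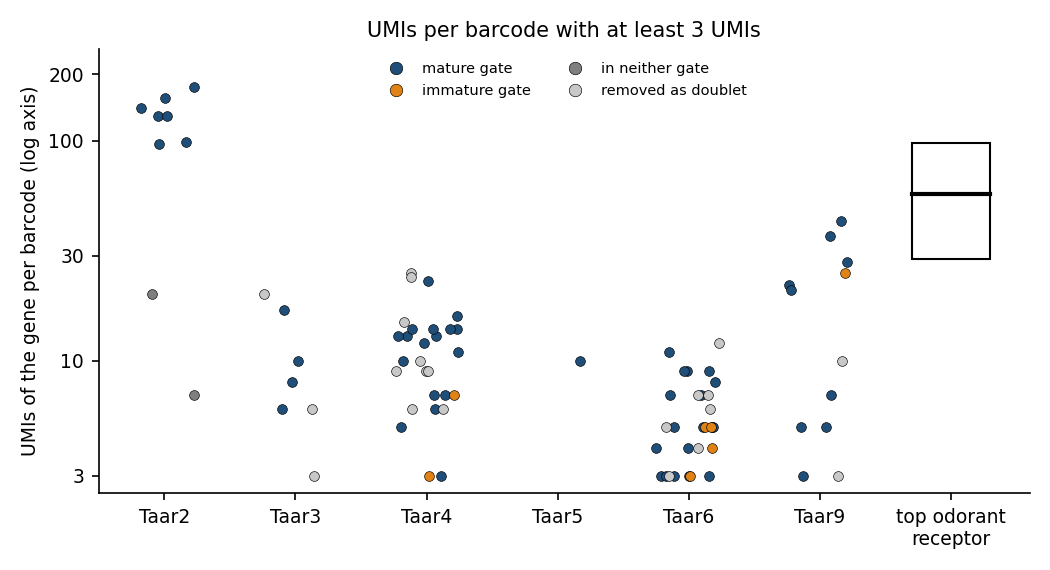
UMIs of the gene in each of the 86 barcodes with at least 3 UMIs (vertical log axis), coloured by gate or by removal as a doublet; the box gives the quartiles and median of the top odorant receptor gene in mature-gate barcodes. Taar2 neurons of the mature gate sit at 96 to 175 UMIs, above every other member, and Taar6 at 3 to 11.

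The annotation used here gives none of the 6 genes a 5′ untranslated region, and the annotation used for counting is not given in the sources used here. In a 5′ library, molecules that start outside an annotated exon can go uncounted. Of 66 odorant receptor genes without an annotated 5′ untranslated region, 8 (12.1%) had a neuron assigned to them by the rule given below, against 944 of 1034 (91.3%) of those with one. The part of these gene models in the levels of the 6 genes was not tested.

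Most molecules of these genes sat in few barcodes. Of 988 Taar2 UMIs in all barcodes, 952 (96.4%) were in the 9 barcodes above, and the other 36 were single UMIs in 36 barcodes, 5, 5, 9 and 17 of them in the libraries in the same order. The share inside barcodes of 3 or more UMIs was 98.6% for Taar3, 97.2% for Taar4, 92.9% for Taar9, 88.2% for Taar6 and 62.5% for Taar5, which had 16 UMIs in all. The limit of 3 UMIs fell at a thin place for most genes: 2 UMIs were found in no barcode for Taar2 and Taar3, in 1 each for Taar4, Taar5 and Taar9, and in 4 for Taar6. Exactly 3 UMIs were found in 7 Taar6 barcodes, 2 Taar4, 2 Taar9 and 1 Taar3.

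Outside the neuron gates few molecules of these genes were found. No sustentacular barcode had 3 UMIs of a member, 0 of 4921, which allows a share of up to 0.0610%. The 1910 barcodes of the precursor gate (the dividing ancestors of the neurons) held no UMI of any of the 6. Any single UMI was found in 0.305% of sustentacular barcodes (median depth 13337 UMIs), 0.646% of immature (11332) and 0.463% of mature barcodes (7866). With each barcode thinned to 2000 UMIs and 330, 15 and 1380 shallower barcodes left out, these shares were 0.0871%, 0.380% and 0.293%.

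Barcodes with a member gene had no second Taar gene at 3 UMIs and few odorant receptor molecules. Of the 65 kept barcodes, 0 had 3 UMIs of a second Taar gene, single copy or not, which allows a share of up to 4.62%. Any UMI of another Taar gene was found in 4. In 3 of these the pair was Taar4 with Taar5, genes that are neighbours with 9168 bases between them, and the other was Taar6 with Taar7a. Over all barcodes, Taar5 UMIs occurred in 6 barcodes of 41911, and 4 of these 6 were among the 28 that had at least 3 Taar4 UMIs. The coding sequences of Taar4 and Taar5 had 56.2% identity, with no shared run over 11 bases.

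An odorant receptor gene reached 3 UMIs in 4 of the 65 kept barcodes (6.15%; 95% exact binomial interval 1.70% to 15.0%, for counting error only). They were a Taar4 barcode of 17295 UMIs (14 Taar4 and 67 odorant receptor UMIs), a Taar6 barcode of 20693 UMIs (5 and 40), and 2 Taar9 barcodes, of 31196 UMIs (37 and 5) and 5073 UMIs (3 and 6). Taar2, Taar3 and Taar5 had none in their 9, 4 and 1 kept barcodes. For comparison, 1363 of 21865 kept barcodes with an odorant receptor gene at 3 UMIs (6.23%) had a second one. The other 61 member barcodes had a median of 1 odorant receptor UMI summed over all 1103 genes, a sum held low by their choice. It was 2 in sustentacular barcodes, which are not neurons, and 55 in the mature gate, both without such a choice. Over all kept barcodes of each gene, also without it, the median was 0 for Taar2, 1 for Taar3, 2 for Taar4, 0 for Taar5, 1 for Taar6 and 1.5 for Taar9.

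Barcodes with both receptor kinds were mostly those marked as doublets, droplets scored as 2 cells. Of the 86 member barcodes, 21 (24.4%, interval 15.8% to 34.9%) were so marked, against 8.38% of all 39715 barcodes that passed the filters. The mark fell on 14 of 18 barcodes with an odorant receptor gene at 3 UMIs and on 7 of 68 without one (10.3%, interval 4.24% to 20.1%). The marked barcodes had a median of 22921 UMIs and the unmarked 8290. With doublets kept, 20.9% of member barcodes had an odorant receptor gene at 3 UMIs.

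**Figure D3:**
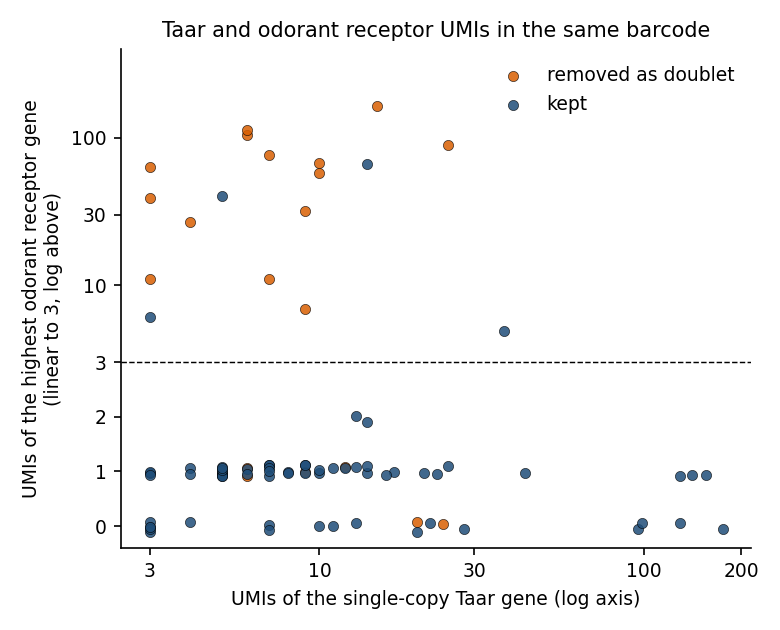
UMIs of the single-copy Taar gene (horizontal log axis) against UMIs of the highest odorant receptor gene in the same barcode (vertical axis, linear to 3 and log above) for all 86 barcodes, with small vertical scatter added. Of the 18 barcodes at or above the dashed line at 3 UMIs, 14 had been removed as doublets and 4 were kept.

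Maturity was compared over the libraries, because the labels do not separate stages and the 2 gates come from the same epithelia. Kept barcodes with a member gene were 56 mature, 7 immature and 2 in neither gate. The share of mature-gate barcodes was 0.139%, 0.215%, 0.294% and 0.436% in female 1, female 2, male 1 and male 2 (mean 0.271% ± 0.127, SD, n = 4). The share of immature-gate barcodes was 0.398%, 0.224%, 0.674% and 0.215% (0.378% ± 0.215). The gates overlapped, and the mature share was the higher in 1 of 4 libraries (male 2). The mean difference of -0.106 percentage points gave p = 0.375 (exact sign-flip permutation test over 4 libraries, two-sided, smallest possible p 0.13).

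The 7 immature barcodes were 4 of Taar6 (3, 4, 5 and 5 UMIs), 2 of Taar4 (3 and 7) and 1 of Taar9 (25). They held 17 to 63 Gap43 and 0 to 20 Omp UMIs, where the gate itself requires Gap43 at or above Omp. None had an odorant receptor gene above 1 UMI. Taar2, Taar3 and Taar5 had no barcode in the immature gate, which at 1859 barcodes allows a share of up to 0.161%, above their mature-gate shares of 0.0341%, 0.0195% and 0.00488%. Their absence there was therefore not detectable as a difference at this depth.

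**Figure D4:**
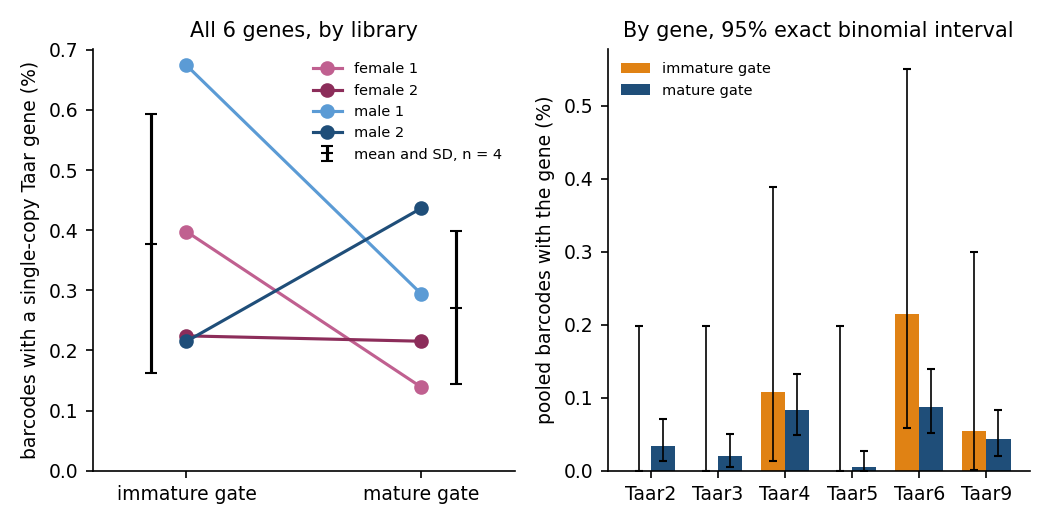
Left, percent of immature-gate and mature-gate barcodes with at least 3 UMIs of any of the 6 genes, with 1 line per library and the mean and SD beside each gate; right, pooled percent by gene with 95% exact binomial intervals, which cover counting error only. The lines fall from immature to mature in 3 libraries and rise in male 2, and the intervals of both gates overlap for every gene.

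UMI sums per library and gate, fitted across all genes, gave a stage difference for 1 member. Of 13939 genes tested, 68.6% passed the test (edgeR quasi-likelihood, adjusted p under 0.05), so that a call is the common outcome here. They were 4926 higher (35.3%) and 4640 lower (33.3%) in the mature gate, or 3674 and 6160 without scaling factors, which moved the median log2 difference of all genes from 0.04 to -0.17. Taar4 had 0.539, 0.636, 1.38 and 2.24 CPM in the mature sums and 0, 0, 0.582 and 1.33 in the immature sums of the same libraries. The mature sum was the higher in 4 of 4, with a log2 difference of 1.77 ± 0.59 (SE; edgeR adjusted p = 0.0344). The call was lost without female 1 (edgeR adjusted p = 0.0629), without female 2 (0.0528) or without male 1 (0.0828), at a gate of 20 Omp or Gap43 UMIs per 10000 (0.214), without the library term (0.150) and without scaling factors (0.0541). By number of barcodes the order was the opposite, 0.0829% of the mature and 0.108% of the immature gate. The 2 immature Taar4 barcodes held 3 and 7 UMIs, against a median of 13 in the mature gate. The barcode of 3 UMIs, from male 1, also held 87 UMIs of the sustentacular marker Cyp2g1, against 63 of Gap43 and 2 of Omp. Without barcodes richer in sustentacular than in neuronal markers, 1 immature Taar4 barcode was left. The mean shares over libraries were then 0.0862% of the mature and 0.0585% of the immature gate. A sum does not tell fewer cells of a kind from less RNA per cell.

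Taar6 had 0.653 ± 0.106 CPM in the mature and 0.924 ± 0.651 in the immature sums (log2 difference -0.23 ± 0.61, edgeR adjusted p = 0.758). Taar9 had 1.04 ± 0.533 and 1.21 ± 2.42 CPM, and all of its 25 immature UMIs were in 1 barcode of male 1. The fitted log2 difference of Taar9, 0.95 ± 1.30 (edgeR adjusted p = 0.544), has the opposite sign to these means, and without male 1 it was 7.68 (edgeR adjusted p = 0.0117). Taar9 passed by DESeq2 on all 4 libraries (log2 difference 3.71, DESeq2 adjusted p = 0.0329), and Taar6 passed in no alternative. Taar2, Taar3 and Taar5 fell under the filter on low counts and were not tested. Their mature sums held 945, 42 and 12 UMIs and their immature sums 1, 0 and 3, with Taar2 at 5.63 ± 4.83 CPM in the mature gate and its lowest library, female 1, at 0.0938.

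Member barcodes were more frequent in the male libraries, within what 4 libraries can show. The mature-gate share was 0.177% ± 0.0538 in the females and 0.365% ± 0.10 in the males (SD, n = 2 each), and the groups did not overlap. The exact permutation test gave p = 0.33, the smallest value that 2 against 2 libraries allow. By UMI sums of the mature gate, Taar2 had 1.84 ± 2.47 CPM in females and 9.42 ± 2.56 in males, Taar3 0.0114 ± 0.0161 and 0.490 ± 0.212, and Taar4 0.588 ± 0.0685 and 1.81 ± 0.609. The libraries of the 2 sexes did not overlap for these 3 genes. With 2 against 2 libraries that are alike, a gene separates in this way with a probability of 0.33. The share of all tested genes without overlap was not counted. Taar5 (0.0231 ± 0.000516 and 0.122 ± 0.172), Taar6 (0.599 ± 0.0519 and 0.707 ± 0.140) and Taar9 (1.23 ± 0.837 and 0.851 ± 0.104) overlapped.

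None of the 5 members tested passed: the log2 male over female difference was 2.39 for Taar2, 5.12 for Taar3, 1.65 for Taar4, 0.27 for Taar6 and -0.49 for Taar9. The edgeR adjusted p-values ran from 0.696 (Taar3) to 1.0. Of 14586 genes, 1 (0.00686%) passed after adjustment and 654 had an unadjusted p under 0.05. Taar3 and Taar4 were among the 654, with unadjusted p-values of 0.00458 and 0.00864 by edgeR. Taar5 was not tested. With doublets kept the Taar3 difference was 0.78. The 2 female Taar3 barcodes, of 20 and 6 UMIs, were among those removed.

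Neurons of the 6 genes were then set against odorant receptor neurons in the genes that are neither Taar nor Olfr. Omp and Gap43, which set the gate, are among these. A mature-gate barcode was assigned to a receptor gene when that gene had at least 3 UMIs and at least 80% of the Taar and Olfr UMIs of the barcode. This gave 39 single-copy Taar neurons (5, 9, 10 and 15 per library) and 17588 odorant receptor neurons. In the mature gate, 56 barcodes had a member at 3 UMIs and 18971 had an odorant receptor gene at 3 UMIs. The rule thus left out a larger part of the member barcodes, and the 2 kinds were not selected alike. Taar4 and Taar6 had 11 neurons each (of 17 and 18 mature-gate barcodes), Taar2 had 7 (of 7) and Taar9 had 5 (of 9). Taar3 had 4 (of 4) and Taar5 had 1 (of 1). The median odorant receptor gene had 8, and 444 of 1103 had more than Taar4 or Taar6. The median depth over all libraries was 8090 and 8010.5 UMIs. Within libraries the mean depth was 5369, 9040, 9416 and 7797 UMIs per Taar neuron and 8492, 8596, 8249 and 7876 per odorant receptor neuron, so the 5 Taar neurons of female 1 were shallower.

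Of the genes that differ by zone of the epithelium, Acsm4 was higher in Taar neurons and Nqo1, Nfib and Nfix were lower. Of 12197 genes tested, 29 (0.238%) were higher and 164 (1.34%) were lower in Taar neurons by edgeR, 1.58% in all. Without scaling factors 52 were higher and 144 lower, and the median log2 difference of all genes moved from -0.20 to -0.09. Of the 6 zone genes 4 passed, 1 higher and 3 lower, with a median log2 difference of -2.16.

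Acsm4, an acyl-CoA synthetase of the dorsal zone, had 670, 184, 350 and 393 CPM in the Taar neurons of female 1, female 2, male 1 and male 2, against 81.7, 87.2, 87.9 and 115 in odorant receptor neurons. Every Taar sum lay above every odorant receptor sum, with a log2 difference of 1.77 ± 0.19 (edgeR adjusted p = 3.6e-17). Nqo1, a quinone reductase that also marks dorsal neurons, went the other way, with 186, 36.9, 0 and 17.1 CPM against 269, 236, 231 and 350. The Nqo1 difference was -3.23 ± 0.34 (edgeR adjusted p = 6.6e-19; 0.0601 by DESeq2). So the 2 dorsal marker genes moved in opposite directions in these sums. An Acsm4 UMI was found in 27 of 39 Taar neurons (69.2%) and in 18.6% of odorant receptor neurons, and a Nqo1 UMI in 5 of 39 (12.8%) and in 20.8%. Mature-gate member barcodes left out by the 80% rule held 0, 4, 1, 1, 6 and 14 Nqo1 UMIs for Taar4. For Taar9 they held 0, 5, 1 and 0, and for Taar6 0 each. The lower share of Taar neurons with a Nqo1 UMI therefore depends on that rule.

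The nuclear factor I genes, transcription factors that follow the zones of the epithelium, were low in the assigned Taar neurons. Nfix had 0, 49.2, 95.6 and 51.3 CPM against 195 to 237 (log2 difference -1.98 ± 0.29, edgeR adjusted p = 4.0e-09). Nfib had 0, 49.2, 10.6 and 25.7 CPM against 104 to 130 (-2.34 ± 0.41, edgeR adjusted p = 2.7e-06). Nfia, with 1 UMI in all 39 neurons, did not pass (edgeR adjusted p = 0.110). Ncam2, an adhesion molecule of ventral and lateral zones, had 160 ± 27.5 CPM against 164 ± 7.77 (log2 difference -0.19 ± 0.23, edgeR adjusted p = 0.853).

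The machinery that carries the receptor signal did not pass the test in any of its 12 genes, with a median log2 difference of -0.13 against -0.20 for all genes. Gnal, the olfactory G protein subunit, had 3814 ± 338 CPM in Taar and 3192 ± 105 in odorant receptor neurons. Adcy3, the cyclase it drives, had 1552 ± 452 and 1530 ± 41.4, and Cnga2, a subunit of the cyclic nucleotide-gated channel, 979 ± 79.9 and 979 ± 42.5. None of the 4 receptor transport genes passed, among them Rtp1, a chaperone that brings odorant receptors to the cell surface, at 975 ± 99.0 against 667 ± 40.0 CPM (log2 difference 0.40 ± 0.15, edgeR adjusted p = 0.254, higher in 4 of 4 libraries). Rtp1 passed only without scaling factors (0.53, edgeR adjusted p = 0.00235), in 1 of 12 alternatives. Of the 8 maturity genes 0 passed, with Omp at 9620 ± 786 and 8151 ± 233 CPM.

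Of 14 genes of receptor choice, 1 passed and was lower: Ebf1, a transcription factor that acts at receptor promoters, at 254 ± 81.9 against 344 ± 34.2 CPM (log2 difference -0.71 ± 0.20, edgeR adjusted p = 0.0235). Of 12 tested genes of axon sorting, 2 passed, both lower. Kirrel2, an adhesion molecule sorted by receptor activity, had 729 ± 138 against 1024 ± 138 CPM (edgeR adjusted p = 0.0195), and Epha5, an ephrin receptor, 252 ± 127 against 421 ± 39.4 (edgeR adjusted p = 0.0232). These 3 calls were lost in 8, 6 and 7 of 12 alternatives for Ebf1, Kirrel2 and Epha5.

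The genes of largest increase were H2-M10.3, Psmd14, Acsm4, Mef2b and Hs3st5. H2-M10.3, a nonclassical major histocompatibility gene, had 74.5, 36.9, 53.1 and 34.2 CPM in the Taar sums against 3.17 to 4.39, on 14 UMIs in 9 neurons (log2 difference 3.39 ± 0.63, edgeR adjusted p = 1.5e-05). Psmd14, a deubiquitinating subunit of the proteasome, had 223, 492, 574 and 539 CPM against 100 to 107 and was found in 37 of 39 neurons (2.17 ± 0.17, edgeR adjusted p = 4.5e-34). Mef2b, a transcription factor, had 857, 369, 297 and 393 CPM against 119 to 169 (1.41 ± 0.18, edgeR adjusted p = 7.1e-13). The calls of H2-M10.3, Psmd14, Acsm4, Mef2b, Nfib and Nfix held in all 12 alternatives. Hs3st5, a heparan sulfate sulfotransferase (79.1 ± 20.8 against 30.6 ± 5.44 CPM, edgeR adjusted p = 0.0413), lost its call in 9 of 12.

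The genes of largest decrease, Dcn, Abca13, Atp6v1b1, Dcxr and Tyro3, had 0 UMIs in the 39 Taar neurons. Against the 9.40 CPM that 3 UMIs over these neurons amount to, they were at least 7.69-fold (Dcn, a proteoglycan of matrix), 5.87-fold (Abca13, a transporter), 5.09-fold (Atp6v1b1, a proton pump subunit), 5.01-fold (Dcxr, a reductase) and 4.49-fold lower (Tyro3, a receptor kinase). Cyp2g1, which marks sustentacular cells and not neurons, moved with them, at 106 CPM in the Taar neurons and 1384 CPM in the odorant receptor neurons. Without the barcodes that hold more sustentacular than neuronal marker UMIs, none of the 5 passed (edgeR adjusted p = 0.310 to 0.718), and 93 genes passed in all, 24 higher and 69 lower. All 39 Taar neurons remained, still with 0 UMIs of the 5 genes. The level in the 16954 remaining odorant receptor neurons was 14.9 CPM for Dcn, 10.7 for Atp6v1b1, 10.5 for Dcxr, 8.87 for Abca13 and 6.70 for Tyro3, and that of Cyp2g1 was 139 CPM. Against the same 9.40 CPM, Dcn was then at least 1.59-fold lower in Taar neurons, and Abca13 and Tyro3 were under that limit in both kinds.

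The last comparison was between the neurons of the 6 genes themselves, which are few: 17 sums of 1 to 5 neurons each. Of 3984 genes tested, 23 (0.577%) passed the edgeR F test over the 6 identities. Among the lists, 1 of 3 tested zone genes passed (Acsm4), as did 4 of 7 maturity genes, 1 of 7 axon sorting genes (Nrp2), and none of the transduction, receptor transport and receptor choice genes. The 10 genes of lowest p were Egr1, Calb2, Cartpt, Ppa1, S100a5, Acsm4, Pcolce2, Pcp4l1, Rtn1 and Pcdh8. In 5 of these 10 (Cartpt, Ppa1, S100a5, Acsm4 and Pcolce2) the Taar6 sums did not overlap those of any other member. The 10 were picked by the test on these same sums, so separation between members is partly built into the choice. How many of the 3984 genes separate Taar6 or another member in this way was not counted.

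Acsm4 was low in the sums of Taar6 neurons. Their sums had 0, 0, 73.9 and 0 CPM of Acsm4, from 3 UMIs in 1 of 11 neurons, while the 13 sums of the other genes ran from 188 (Taar4, female 2) to 1254 CPM (Taar9, female 1), and 26 of those 28 neurons had a UMI. Mature-gate Taar6 barcodes left out by the rule on the share of receptor UMIs held 5, 1 and 1 Acsm4 UMIs in male 1. Those left out in the other libraries held 0 each. The width of the gap between Taar6 and the other genes therefore depends on that rule. In the sums of assigned neurons the groups did not overlap (edgeR F test over all 6 genes, adjusted p = 1.9e-06, called in all 9 alternatives). Nrp2, a semaphorin receptor of ventral olfactory axons, had the reverse pattern, at 264, 257, 271 and 243 CPM in the 4 Taar6 sums and 0 to 62.6 CPM in the 13 others (edgeR adjusted p = 8.8e-04). An Nrp2 UMI was found in 9 of 11 Taar6 neurons. The Nrp2 call was lost without female 2 (edgeR adjusted p = 0.197) and without male 1 (0.392).

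Nfix, which did not pass the test, was also found mostly in Taar6 neurons: 0, 114, 197 and 243 CPM in Taar6 sums, with 7 of 11 neurons, and 0 to 67.4 CPM in the others, with 3 of 28 neurons (edgeR adjusted p = 0.264). It passed in 1 of 7 alternatives, with neurons taken that have no other receptor gene at 3 UMIs (edgeR adjusted p = 1.4e-04). Cartpt, the precursor of a neuropeptide, had 264, 228, 222 and 243 CPM in Taar6 sums and 724 to 3992 CPM in the others (edgeR adjusted p = 3.7e-13). Pcolce2, a secreted enhancer of procollagen processing, had 1055, 999, 1158 and 1639 CPM in Taar6 sums and 94.7 to 787 CPM in the others (edgeR adjusted p = 1.9e-06). For Cartpt and Pcolce2 the Taar6 sums did not overlap with any other, and for Nfix they did, since female 1 had none. Ncam2 was not called (edgeR adjusted p = 0.963), at 18.8 CPM over the Taar2 neurons and 125 to 249 CPM over those of Taar3, Taar4, Taar6 and Taar9.

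S100a5, a calcium-binding protein of mature neurons, had 1577 to 9711 CPM in the Taar6 sums and 10527 to 52325 CPM in the others (edgeR adjusted p = 3.2e-07), with Taar3 the highest at 42932 CPM over its 4 neurons. Pcp4l1, a calmodulin-binding peptide gene, was likewise lowest over the Taar6 neurons (1113 CPM) and highest over the Taar3 neurons (8502 CPM) (edgeR adjusted p = 2.3e-05). Both calls were lost in 1 of 9 alternatives. Omp, the gate's own marker, had 7171 to 12442 CPM in Taar6 sums and did not pass (edgeR adjusted p = 1.0). Taar3 neurons also led in Egr1, an immediate early transcription factor, with 1752 and 1936 CPM against at most 717 in any other sum (edgeR adjusted p = 6.4e-14).

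Calb2 (calretinin) and Gap43, which mark younger neurons, passed the F test, with most of their UMIs in a few Taar6 neurons. Of the 102 Calb2 UMIs in Taar6 neurons 45.1% were in 1 barcode, and of the 33 Gap43 UMIs 72.7% were in 1 barcode, with 24 Gap43 and 110 Omp UMIs. The Calb2 call was lost without male 1 (edgeR adjusted p = 1.0).

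**Figure D5:**
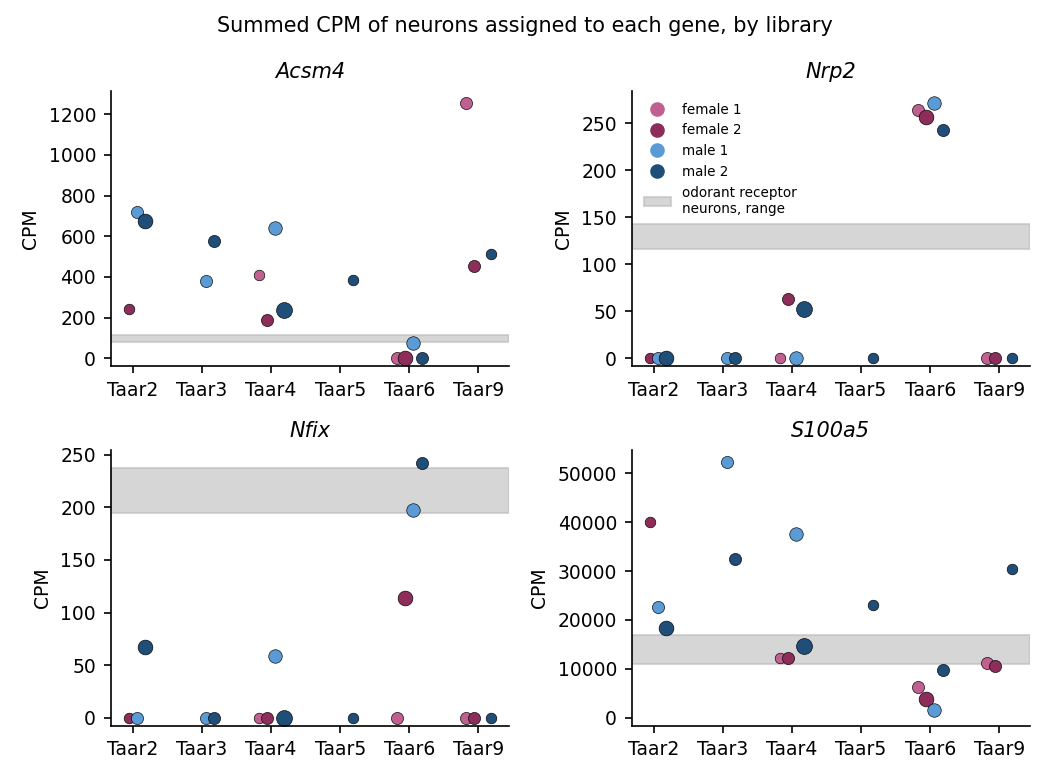
CPM (vertical axes) of Acsm4, Nrp2, Nfix and S100a5 in the summed neurons of each single-copy Taar gene, with 1 point per library, larger where more neurons were summed; the grey band is the range of the odorant receptor neurons over 4 libraries. The Taar6 sums are lowest in Acsm4 (0 to 73.9 CPM) and S100a5 and highest in Nrp2 (243 to 271 CPM).

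Across the 40 sums of 10 gates and 4 libraries, the genes most like the summed level of the 6 were Gnal (Pearson r = 0.785), Faim2 (0.782), Pcdha6 (0.779), Lpcat4 (0.774) and Manea (0.773), by log2(CPM + 1) and among 14421 genes. Omp had r = 0.725. The values describe these sums, which share libraries, and do not measure a relation across independent samples. The 6 genes together had 8.84 ± 5.86 CPM in the mature gate, 5.98 ± 7.92 in the ungated barcodes (27 of whose 28 UMIs came from the Taar2 barcodes of 7 and 20 UMIs), 2.80 ± 2.66 in the immature gate and 0 in the precursor gate.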

How the data were processed

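Droplet libraries (10x Genomics 5′ chemistry) of the olfactory epithelium were analysed, 2 from females and 2 from males. The authors deposited raw UMI counts per gene and barcode as matrices. The file headers name Cell Ranger 6.0.2, and the submitters' processing notes name Cell Ranger 5.0.1 and mm10. The cell calling settings and the annotation used for counting are not given in the sources used here.

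Barcodes with at least 500 genes and at most 10% mitochondrial UMIs were kept, and doublets were removed by comparison with simulated pairs, at 0.8% per 1000 barcodes. Mature neurons had at least 3 Omp UMIs, at least 10 per 10000 UMIs, and more Omp than Gap43, and immature neurons had the same of Gap43 with Gap43 at or above Omp. Other gates used marker genes. Neurons were assigned to a receptor gene at 3 UMIs and 80% of Taar and Olfr UMIs, and 34 odorant receptor pseudogenes were left out.

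Counts were summed per library and kind of cell and tested with edgeR 4.0.16 (quasi-likelihood, TMM scaling, filterByExpr or, between members, a mean count of at least 1, Benjamini-Hochberg adjustment at 0.05) in R 4.3.3, with library as a term for comparisons within libraries. DESeq2 1.42.0 was an alternative. Shares of barcodes were compared by exact permutation over libraries, with 95% exact binomial intervals and a limit of 3 counts for a count of 0, which cover counting error only. CPM were computed from the deposited counts. On simulated data with 2-fold and 4-fold changes, 71% and 93% were recovered between gates, 62% and 87% between sexes, 24% and 51% between Taar and odorant receptor neurons, and 0% and 8% between the 6 genes. Between the 6 genes the change was put into the Taar9 sums only, so recovery of changes in another member was not simulated.

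The genes, the gene lists and the tests were chosen with earlier results of these data known. Named genes were the 6 members, up to 4 of each list, the 5 of largest change in each direction that passed and, between members, the 10 of lowest p. Nrp2 and Gap43 between members are in the lists. Alternatives were other scaling, filters, gates, UMI limits, doublets kept, the block, and leaving out each library. Python 3.11.15 with numpy 2.4.6, scipy 1.17.1, pandas 2.3.3, Biopython 1.88 and matplotlib 3.10.9 was used.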

Additional observations from a re-analysis of the deposited data

Results flagged for a closer look

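In 7 of 35 sets of 4 library values, 1 library stood apart from the other 3 by Dixon's criterion, which chance meets in about 1 of 20 sets of continuous values. In 5 of these 7 the other 3 libraries were all at 0, where a single UMI or barcode meets it, so that rate does not hold for them. Taar5 and Taar9 each count in 2 of the sets. Taar9 had 4.85 CPM in the immature gate of male 1, from 1 barcode (0.225% of that gate), and 0 in the other libraries. Taar5 had 0.243 CPM in the mature gate of male 2, from 1 barcode (0.0190% of that gate), and at most 0.0234 CPM in the others. Taar2 had 0.186 CPM in the immature gate of female 2, a single UMI, and 0 in the others. In the Taar neurons, Nfia had 8.55 CPM in male 2 and 0 in the others, and Gap43 had 329 CPM in male 1 and at most 24.6 CPM in the others.

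The share of barcodes with Taar4 was higher in the mature than in the immature gate by a mean of 0.0395 percentage points in the females, in both libraries. In the males it was lower in both, with a mean of -0.0953 points, and the difference between the sexes was not tested. Each male library had 1 Taar4 barcode in the immature gate, and that of male 1 held 87 Cyp2g1 UMIs.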

How the results depend on the processing

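The difference in share between mature and immature gates turned to 0.0117 percentage points at 5 UMIs, and the immature share was 0.723% at a gate of 20 UMIs per 10000. An odorant receptor gene was in 20.9% of member barcodes with doublets kept, and 1 barcode had a second Taar gene at 2 UMIs. Between sexes 1 gene passed. DESeq2 called 150, the replicate block 0, doublets kept 2, a gate of 5 UMIs per 10000 called 2, and leaving out a library 0 to 2. The deviations of female 1 and male 1 from their group means had r = -0.045 across 14559 genes. That 1 value cannot tell whether replicate numbers pair libraries across sexes. The replicate block changed no call of a member.

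Against odorant receptor neurons, the 193 calls became 74 by DESeq2, 44 with no replicate block, 341 with doublets kept, 115 at 5 UMIs and 90%, and 111 to 199 without a library. With no other receptor gene at 3 UMIs the count was 295, and without barcodes rich in sustentacular markers 93, both settings chosen after seeing the data. Between members, the 23 calls became 63 with doublets kept, 54 with no other receptor gene at 3 UMIs, and 10 to 29 without a library. Single genes also turned: the stage difference of Taar6 was 0.073 at a gate of 5 and -0.69 to 0.11 without a library, that of Taar9 was -0.57 at a gate of 20, and the sex difference of Taar9 was -1.05 to 0.45 without a library. The cause was not tested.

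Of the other results, 361 values for single genes kept their direction and side of the threshold, 55 lost a call and 4 gained one. With 9 to 25 kept member barcodes per library, small differences between libraries were not detectable.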
